A study of Mus musculus with 2 samples.

Results

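The respiratory chain genes of mouse tibialis anterior muscle (a fast muscle of the lower leg) were followed in 1 single-cell library of injured muscle and 1 of uninjured muscle. The members were all gene symbols of the deposited tables that begin with Nduf, Uqcr, Atp5, Sdha to Sdhd or Cox4 to Cox8, and the mitochondrially encoded symbols beginning with mt-Nd, mt-Co, mt-Cytb or mt-Atp. Processed pseudogene symbols were left out, and at least 20 unique molecular identifiers (UMIs, each standing for 1 captured transcript end) over both libraries were required. This gave 103 genes of 28625 symbols, of which 90 are encoded in the nucleus and 13 in the mitochondrion. Cox7b2, with 0 UMIs in the injured and 1 in the uninjured library, and Cox8c, with 0 in both, fell below the minimum. The members nearest above it were Atp5s with 277 UMIs, Cox6b2 with 406 and Cox8b with 506.

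The injured library came from C57B/6 mice of 12 weeks, labelled young, whose tibialis anterior was taken 24 hours after 1.2% BaCl (barium chloride) was injected into it. The salt makes muscle fibres degenerate while many of the cells around them survive. The uninjured library came from the same strain, age and muscle, titled as a control. The injection also stands in the treatment label of the control, so what that muscle received was not given in the sources used here. All mice ate standard chow, and the muscle was digested with protease, so whole fibres are mostly lost and the cells described are chiefly those between the fibres. No genetic change is given for either group, nor how many mice went into each library.

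The respiratory chain passes electrons taken from nutrients through complexes I to IV in the inner mitochondrial membrane, pumping protons as it does so, and complex V, the ATP synthase, uses the proton gradient to make ATP. Complexes I, III, IV and V are each built from subunits of both genomes, while complex II, succinate dehydrogenase, which also works in the tricarboxylic acid cycle, is wholly nuclear. Nuclear subunits are made in the cytoplasm and imported, whereas the mitochondrial subunits are transcribed as long polycistronic RNAs from mitochondrial DNA and translated by a separate ribosome. Several complex IV subunits have a second gene used in heart and skeletal muscle fibres, and a few have a gene linked to low oxygen.

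Of the 90 nuclear members, 36 are complex I subunits, with 7 core and 29 supernumerary subunits, and 7 are complex I assembly factors of the Ndufaf series. Complex II has 4, complex III 8, complex IV 17, complex V 15, and Ndufa4l2, Atp5s and Atp5sl make up the rest. The 13 mitochondrial members are 7 of complex I, mt-Cytb of complex III, 3 of complex IV and 2 of complex V. They are all the mt- symbols of the tables, so summed mitochondrial level here equals the mitochondrial share used to filter cells. Several members have near-identical processed copies elsewhere in the genome, and stretches of mitochondrial DNA are also present in nuclear chromosomes. How the authors' counting split reads between such copies was not given in the sources used here, so levels of single members carry that uncertainty.

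The injured library held 4489 barcodes and 39014762 UMIs, the uninjured library 5581 barcodes and 22994502 UMIs. The lowest barcode total was 3333 UMIs in the injured and 1843 in the uninjured library, with medians of 7282 and 3237. After filtering, 4260 injured and 5137 uninjured cells remained, and 31 barcode sequences occurred among the kept cells of both libraries, 5 of them in the same class. Xist had 0 UMIs in the injured and 17744 in the uninjured library and Y-linked genes 4698 and 0, so sex and injury cannot be told apart here. Clusters were made without the members and named from marker genes. The 6 classes with at least 50 cells in both libraries were compared. They were 421 injured and 765 uninjured fibro-adipogenic progenitor-like (FAP-like) cells, 460 and 2661 endothelial-like cells, 2474 and 131 monocyte and macrophage-like cells, 155 and 440 tenocyte-like cells, 130 and 305 cells of a mixed pericyte and smooth muscle-like class, and 51 and 249 glial-like cells. Injured and uninjured cells lay mostly in different clusters in the FAP-like, endothelial-like, monocyte and macrophage-like and tenocyte-like classes. Of the injured FAP-like cells 402 were in cluster 12, led by Cxcl5, Il1rl1 and Prg4, where 7 uninjured cells lay, and of the injured endothelial-like cells 333 were in cluster 13 beside 9 uninjured cells. The pericyte and smooth muscle-like class was a single cluster, which also had all 12 endothelial markers present by the naming rule. The clusters led by haemoglobin genes and by muscle fibre genes had all 12 present too. With 1 library per group no difference has a replicate check and no test of the condition was possible. All intervals are exact 95% intervals for counting error only, and CPM stands for the counts of a gene scaled to 1000000 UMIs of its class and library.

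Transcripts of the mitochondrial genome were lower in the injured library in all 6 classes, while the summed transcripts of the nuclear members were higher in 5 classes and lower in 1. In FAP-like cells, the connective tissue cells between fibres, mitochondrial members made up 2.48% of UMIs in the injured and 4.85% in the uninjured library. The endothelial-like shares were 2.58% in the injured and 4.80% in the uninjured library, and the monocyte and macrophage-like shares 3.05% and 5.48%. The injured share was the smaller one in each of these 3 classes. Tenocyte-like cells had 2.80% in the injured and 5.02% in the uninjured library, pericyte and smooth muscle-like cells 3.44% and 5.74%, and glial-like cells 4.62% and 6.84%. As log2 ratios of injured over uninjured, the summed mitochondrial level was -0.97 (-0.98 to -0.96) in FAP-like, -0.89 (-0.90 to -0.88) in endothelial-like, -0.84 (-0.86 to -0.83) in monocyte and macrophage-like and -0.84 (-0.86 to -0.83) in tenocyte-like cells. It was -0.74 (-0.75 to -0.72) in pericyte and smooth muscle-like and -0.57 (-0.59 to -0.54) in glial-like cells. The difference was largest in FAP-like cells, 1.95-fold lower in the injured library, and smallest in glial-like cells, 1.48-fold lower.

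The nuclear members summed to 2.43% of UMIs in injured and 2.04% in uninjured FAP-like cells, a log2 ratio of 0.26 (0.24 to 0.27). The log2 ratio was 0.20 in tenocyte-like, 0.16 in endothelial-like, 0.16 in glial-like and 0.08 in monocyte and macrophage-like cells. Only in pericyte and smooth muscle-like cells, among the 6 classes, was the nuclear sum lower in the injured library, with 2.77% in injured and 3.09% in uninjured cells and a log2 ratio of -0.16 (-0.18 to -0.14), or -0.53 without the subcluster described further on. The number of nuclear UMIs per mitochondrial UMI, which does not depend on the class total, was 0.979 in injured and 0.420 in uninjured FAP-like cells and 1.07 in injured and 0.516 in uninjured endothelial-like cells. In the injured and uninjured libraries it was 0.786 and 0.415 in monocyte and macrophage-like, 0.859 and 0.418 in tenocyte-like, 0.806 and 0.538 in pericyte and smooth muscle-like, and 0.623 and 0.377 in glial-like cells. In all 6 classes the nuclear transcripts stood higher relative to the mitochondrial ones in the injured library.

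**Figure D1:**
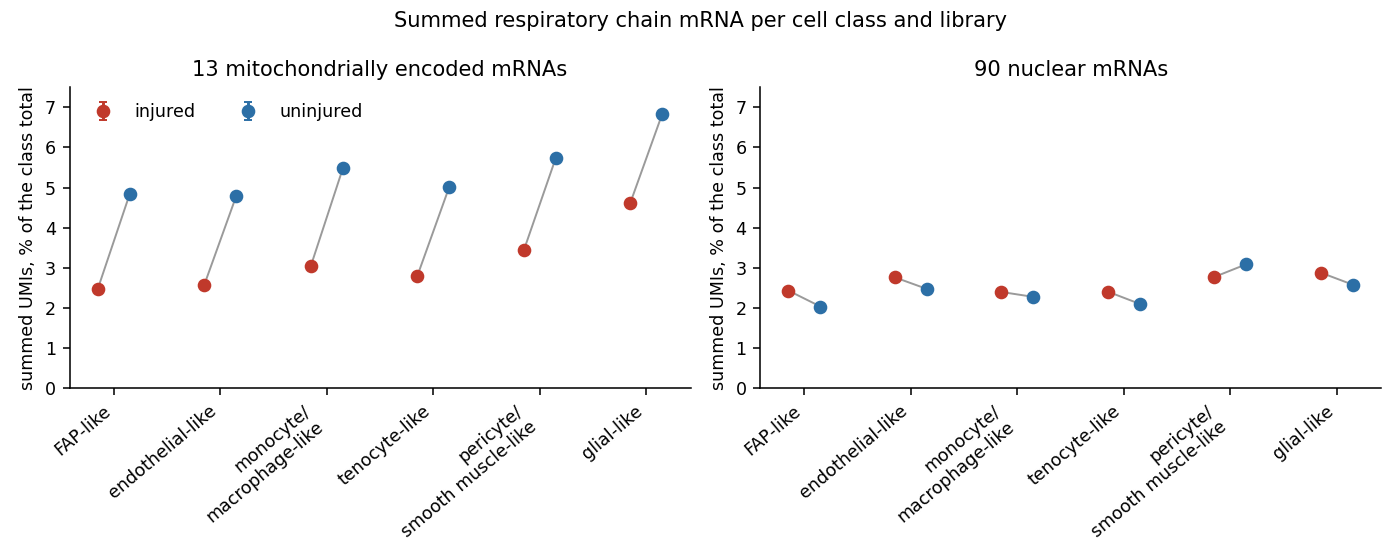
Summed UMIs of the mitochondrial members and of the nuclear members as a percentage of all UMIs of the class (vertical axes), in 6 cell classes, with the injured library left of the uninjured one and exact counting intervals as error bars. Mitochondrial shares run between 2.48% and 4.62% in the injured and between 4.80% and 6.84% in the uninjured library, whereas nuclear shares lie close together.

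The injured cells held more UMIs each, so the shares were also compared above a floor of depth and within bands of depth. Among cells with at least 3333 UMIs, the lowest total of the injured library, the summed mitochondrial log2 ratio was -0.86 in FAP-like, -0.65 in endothelial-like, -0.69 in monocyte and macrophage-like, -0.73 in tenocyte-like and -0.66 in pericyte and smooth muscle-like cells. In glial-like cells it was -0.27 there, with 51 injured and 41 uninjured cells, against -0.57 over all glial-like cells. That floor kept every injured cell of these classes and removed only shallower uninjured ones, so it did not match depth. Among cells of 4000 to 6000 UMIs the median mitochondrial share per cell was 3.13% in 36 injured and 4.57% in 251 uninjured FAP-like cells. The same medians were 2.51% in injured and 3.92% in uninjured endothelial-like cells, and 3.23% in injured and 4.65% in uninjured monocyte and macrophage-like cells. At this depth the glial-like medians were 5.10% in 20 injured and 5.16% in 25 uninjured cells, so the glial-like difference was not seen within that band. In cells of 6000 to 10000 UMIs the medians were 2.82% in injured and 3.86% in uninjured FAP-like cells and 2.21% and 3.48% in endothelial-like cells. The nuclear medians among cells of 4000 to 6000 UMIs were 2.34% in injured and 1.997% in uninjured FAP-like, 2.68% and 2.42% in endothelial-like and 2.91% and 2.57% in glial-like cells. They were 2.36% in both injured and uninjured monocyte and macrophage-like cells, 1.85% in 22 injured and 2.004% in 110 uninjured tenocyte-like cells, and 2.89% in injured and 3.02% in uninjured pericyte and smooth muscle-like cells. The higher nuclear sum was thus not seen at this depth in monocyte and macrophage-like or tenocyte-like cells. At 6000 to 10000 UMIs the nuclear medians were 2.32% in 43 injured and 2.09% in 122 uninjured tenocyte-like cells, so it was seen there. FAP-like cells had 2.40% in the injured and 2.04% in the uninjured library at that depth. Endothelial-like cells had 2.85% and 2.42%, and pericyte and smooth muscle-like cells 2.56% and 2.85%.

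Within clusters that held at least 30 cells of each library, the mitochondrial sum was again lower in the injured library. Its log2 ratio was -0.92 in cluster 17, a monocyte and macrophage-like cluster led by Retnla with 47 injured and 116 uninjured cells. In the endothelial-like clusters 6 and 7, with 30 and 69 injured and 457 and 396 uninjured cells, it was -0.31 and -0.76. Glial-like cluster 19 gave -0.59 with 45 injured and 105 uninjured cells. The nuclear sums in these clusters had log2 ratios of 0.15 in cluster 17, 0.22 and 0.37 in clusters 6 and 7, and 0.08 in cluster 19. Glial-like cells differed in macrophage markers too. The 14 markers summed to 2010.45 CPM in the injured library, with all 14 present, and to 4251 CPM in the uninjured library, with 7 present. Lyz2 alone had 1104 CPM in the injured and 4235 CPM in the uninjured library, while the other 13 markers had 906 CPM in the injured and 15.5 CPM in the uninjured library. Their part in the glial-like values was not tested.

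The sums of the mitochondrial genes differed by complex. The complex IV genes were furthest below the uninjured library, with summed log2 ratios of -1.37 in FAP-like, -1.25 in tenocyte-like, -1.15 in endothelial-like, -0.97 in monocyte and macrophage-like, -0.95 in pericyte and smooth muscle-like and -0.92 in glial-like cells. The complex I genes together stood at -0.46, -0.47, -0.61, -0.70, -0.46 and -0.24 in the same order of classes, the smallest summed difference of the 4 complexes in each class. That sum leans on mt-Nd1, which gave 10250 of 18986 complex I UMIs in injured tenocyte-like cells. By the median over genes complex I was not smallest in tenocyte-like (-0.60, complex V -0.53) or glial-like cells (-0.26, complex V -0.21). Nor was it in monocyte and macrophage-like cells (-0.84, complex III -0.80). At least 2-fold lower in the injured library were 6 of 13 mitochondrial members in FAP-like cells, where 28.1% of all measured symbols were, and 3 of 13 in endothelial-like cells, where 19.9% were. The counts were 4 of 13 in monocyte and macrophage-like cells (all symbols 23.8%), 3 of 13 in tenocyte-like cells (22.0%), 1 of 13 in pericyte and smooth muscle-like cells (16.2%) and 1 of 12 in glial-like cells (21.6%). Most of the 13 genes thus lay below 0 but inside the 2-fold limit. The median log2 ratio over the 13 was -0.85 in FAP-like cells, beside -0.28 over all measured symbols, and the other 5 classes had medians between -0.84 and -0.35, beside -0.28 to -0.14 over all symbols in the 6 classes.

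mt-Co1, the catalytic subunit of cytochrome c oxidase (ENSMUSG00000064351, mitochondrial genome, GRCm38, 5328 to 6872, plus strand), was furthest below the uninjured library of the 13 genes in every class but the monocyte and macrophage-like one. Its level was 2459.8 CPM in injured and 7908 CPM in uninjured FAP-like cells, a log2 ratio of -1.68 (-1.71 to -1.66). In tenocyte-like cells it was 2385 CPM in the injured and 7073 CPM in the uninjured library, and in endothelial-like cells 3059 and 7688 CPM. mt-Co1 was the only mitochondrial member at least 2-fold lower in all 6 classes, with log2 ratios of -1.22 in monocyte and macrophage-like, -1.09 in pericyte and smooth muscle-like and -1.13 in glial-like cells. mt-Co2, which takes electrons from cytochrome c, had log2 ratios between -1.05 in FAP-like and -0.63 in glial-like cells. mt-Co3, another core subunit, lay at -1.30 in FAP-like, -1.21 in tenocyte-like, -1.15 in endothelial-like and -0.84 in monocyte and macrophage-like cells.

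mt-Nd1, a membrane arm subunit of complex I next to the ubiquinone site (ENSMUSG00000064341, 2751 to 3707, plus strand), was the opposite case. It had 4901 CPM in injured and 5048 CPM in uninjured FAP-like cells, a log2 ratio of -0.04 (-0.07 to -0.02). The log2 ratios were -0.08 in glial-like, -0.15 (-0.19 to -0.11) in tenocyte-like, -0.25 in pericyte and smooth muscle-like, -0.37 in endothelial-like and -0.56 in monocyte and macrophage-like cells. In injured FAP-like cells mt-Co1 counted 16237 UMIs and mt-Nd1 32348, while in uninjured ones mt-Co1 counted 26357 and mt-Nd1 16824. The UMIs of mt-Nd1 thus outnumbered those of mt-Co1 in the injured and not in the uninjured cells. How evenly mRNAs of different genes were captured was not tested, so UMIs do not rank their numbers of molecules.

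The other complex I genes varied more by class. mt-Nd4 had log2 ratios between -1.14 in FAP-like and -0.53 in glial-like cells, mt-Nd5 between -1.05 and -0.29 in the same classes, and mt-Nd2 between -0.96 in monocyte and macrophage-like and -0.23 in glial-like cells. mt-Nd3 had 462 CPM in injured and 759 CPM in uninjured monocyte and macrophage-like cells, and its log2 ratio ran from -0.72 there to -0.05 (-0.25 to 0.14) in glial-like cells. mt-Nd4l, whose reading frame overlaps that of mt-Nd4, was lowest relative to the uninjured library in monocyte and macrophage-like cells, with 82.2 CPM in the injured and 226 CPM in the uninjured library and a log2 ratio of -1.46 (-1.72 to -1.18). mt-Nd6 is the only member transcribed from the other strand of mitochondrial DNA (13552 to 14070, minus strand), and it had few UMIs. Its log2 ratio was -0.12 (-0.70 to 0.48) in FAP-like, 0.07 (-0.34 to 0.47) in endothelial-like, 0.49 (-0.36 to 1.35) in tenocyte-like, 0.11 (-0.79 to 0.99) in pericyte and smooth muscle-like and -1.13 (-2.31 to 0.35) in monocyte and macrophage-like cells. All 5 intervals for mt-Nd6 include 0, so no difference was detectable at this depth.

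mt-Cytb, the mitochondrial subunit of complex III, had 2226 CPM in injured and 4996 CPM in uninjured FAP-like cells, and log2 ratios of -1.17 there, -0.98 in endothelial-like and -0.51 in glial-like cells. mt-Atp6, a proton channel subunit of ATP synthase, had 5931 CPM in injured and 10423 CPM in uninjured FAP-like cells. Its log2 ratios ran from -0.81 in FAP-like to -0.38 in glial-like cells. mt-Atp8, whose frame overlaps that of mt-Atp6 so that reads may be split between them, had a log2 ratio of -1.28 in monocyte and macrophage-like cells and -0.78 in FAP-like cells.

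**Figure D2:**
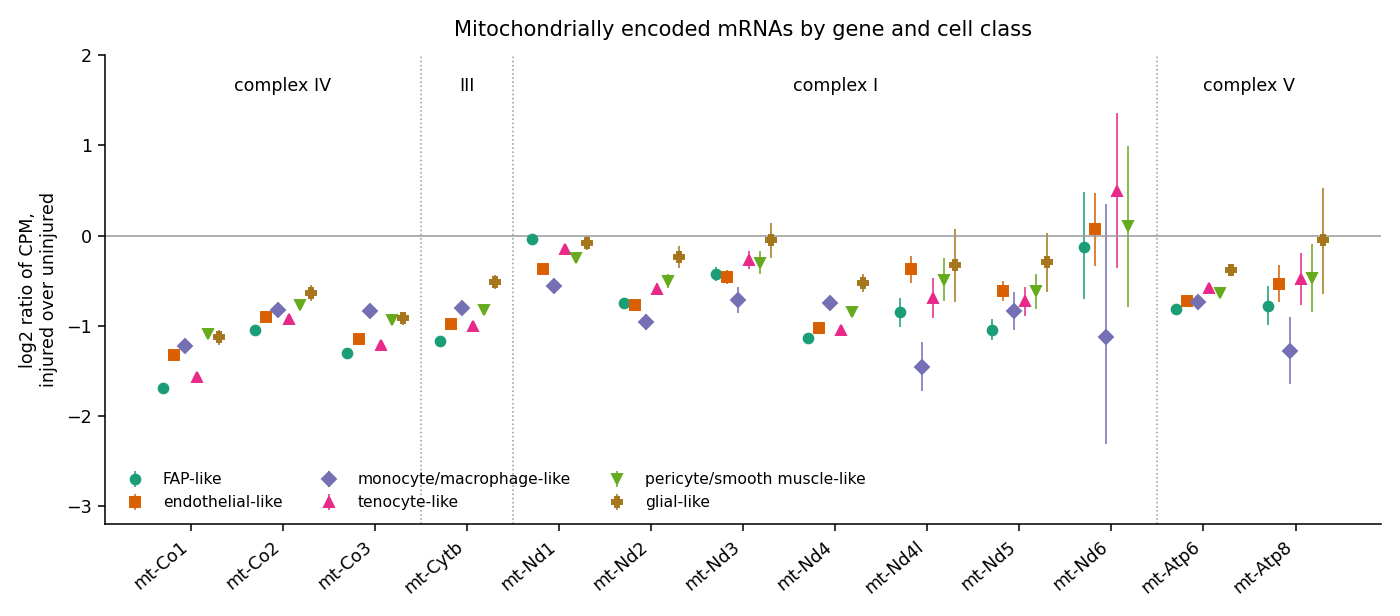
Log2 ratio of CPM, injured over uninjured (vertical axis), of the 13 mitochondrially encoded members grouped by complex (horizontal axis), with 1 symbol per cell class and exact counting intervals. mt-Co1 lies below -1 in all 6 classes, mt-Nd1 lies closest to 0 in FAP-like cells, and the long bars belong to mt-Nd6.

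The nuclear members differed gene by gene, with few large differences. At least 2-fold higher in the injured library were 8 of 90 measured members in FAP-like cells, where 15.2% of all measured symbols were higher, and 7 of 90 were at least 2-fold lower (all symbols 28.1%). Endothelial-like cells had 3 higher (all symbols 10.8%) and 4 lower of 90, and monocyte and macrophage-like cells 2 higher (8.39%) and 7 lower of 88. Tenocyte-like cells had 7 higher (10.0%) and 4 lower of 88, pericyte and smooth muscle-like cells 0 higher (8.66%) and 2 lower of 87, and glial-like cells 1 higher (8.37%) and 1 lower of 79. In each class both the share of nuclear members at least 2-fold higher and the share at least 2-fold lower were under the share of all symbols. The median log2 ratio over nuclear members was 0.23 in FAP-like, 0.28 in tenocyte-like, 0.19 in endothelial-like, 0.11 in monocyte and macrophage-like, 0.11 in glial-like and -0.14 in pericyte and smooth muscle-like cells. Over all measured symbols the medians in the same order were -0.28, -0.22, -0.19, -0.18, -0.21 and -0.14. Above 0 were 63 of 90 members in FAP-like, 60 of 88 in tenocyte-like, 57 of 90 in endothelial-like and 34 of 87 in pericyte and smooth muscle-like cells. Of all measured symbols 4679 of 11333, 3967 of 9630, 4632 of 11264 and 4097 of 9471 were above 0 in the same order. The pericyte and smooth muscle-like count was thus near the share of all symbols. Measured against median-of-ratios size factors, log2 ratios by class totals are shifted by -0.28 in FAP-like, -0.21 in monocyte and macrophage-like, -0.12 in tenocyte-like, -0.11 in endothelial-like, -0.08 in pericyte and smooth muscle-like and 0.06 in glial-like cells.

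Of 79 nuclear members with at least 20 UMIs in every class, 65 were 2-fold different in no class, 21 were above 0 in all 6 classes and 6 were below 0 in all 6. The 21 include Atp5a1, Atp5b, Atp5d, Atp5f1, Atp5g1 and Atp5o of complex V, Uqcrc1, Uqcrb and Uqcrq of complex III, Sdhb of complex II, Cox5a, Cox5b and Cox7b of complex IV, and 8 complex I genes, among them the assembly factor Ndufaf4. The 6 are Ndufa6, Ndufa13, Ndufb10 and Ndufv3 of complex I, Uqcrh of complex III and Cox7a2l. At least 2-fold higher in 3 or more classes were Atp5g1 and Ndufa12, and at least 2-fold lower in 3 or more were Cox7a2l, Cox6a2, Cox6b2, Cox7a1 and Cox8b. Like counts across classes over all symbols are not given here. These counts therefore only list members and do not set them apart from other genes.

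**Figure D3:**
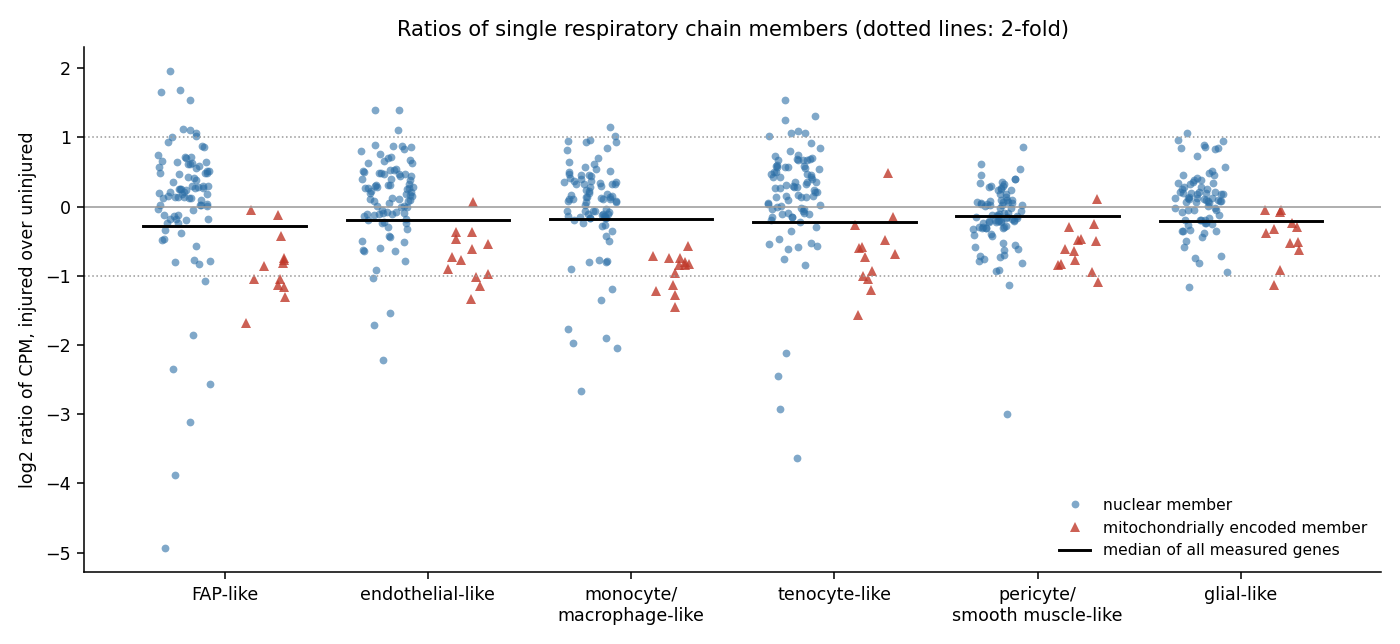
Log2 ratio of CPM, injured over uninjured (vertical axis), of single members in each of the 6 cell classes (horizontal axis), nuclear and mitochondrial members drawn apart and dotted lines at 2-fold. Most nuclear members lie between the dotted lines, and the mitochondrial members lie below 0 except mt-Nd6 in 3 classes.

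Complex I takes electrons from NADH. Its nuclear subunits summed to log2 ratios of 0.08 in FAP-like, 0.05 in endothelial-like, 0.02 in monocyte and macrophage-like, 0.05 in tenocyte-like, -0.01 in glial-like and -0.20 in pericyte and smooth muscle-like cells, so the nuclear subunits together were nearly level outside the last class, beside the lower mitochondrial sums given above. Ndufa2, the nuclear complex I member with the most UMIs, had 445 CPM in injured and 440.5 CPM in uninjured FAP-like cells. The 7 core subunits, which carry the flavin and the iron-sulphur clusters, summed to 0.57 in tenocyte-like, 0.38 in FAP-like, 0.29 in monocyte and macrophage-like and 0.20 in endothelial-like cells, and to -0.05 in pericyte and smooth muscle-like and -0.03 in glial-like cells. Ndufv1, which binds the flavin and NADH, had 126 CPM in injured and 61.9 CPM in uninjured tenocyte-like cells, a log2 ratio of 1.02 (0.72 to 1.33). Ndufs8, a carrier of iron-sulphur clusters, had 87.3 CPM in injured and 153 CPM in uninjured glial-like cells, with a log2 ratio of -0.81 (-1.49 to -0.18). That was among the 3 lowest nuclear ratios of glial-like cells, while the Ndufs8 ratio was 0.93 in monocyte and macrophage-like cells.

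Supernumerary subunits of complex I, which surround the core, lay on both sides of 0 within a class. Ndufa12 had 252 CPM in injured and 116 CPM in uninjured FAP-like cells, 243 and 116 CPM in tenocyte-like cells, and 163 and 80.7 CPM in monocyte and macrophage-like cells. Its log2 ratios were 1.12 (0.96 to 1.28), 1.07 (0.85 to 1.29) and 1.01 (0.59 to 1.48) in these classes, and it was above 0 in the other 3. Ndufab1, the mitochondrial acyl carrier protein, which also serves fatty acid synthesis in the mitochondrion, had 289 CPM in injured and 134 CPM in uninjured FAP-like cells, a log2 ratio of 1.10 (0.96 to 1.26). Both genes thus passed 2-fold in FAP-like cells. Ndufa13, also known as Grim19, had 234 CPM in injured and 493 CPM in uninjured FAP-like cells, a log2 ratio of -1.08 (-1.18 to -0.98), and was below 0 in all 6 classes. Ndufa6, a subunit of the LYR family that binds the acyl carrier protein, had 223 CPM in injured and 509.8 CPM in uninjured monocyte and macrophage-like cells, a log2 ratio of -1.19 (-1.37 to -1.01). Ndufb6 was above 0 in all classes, with log2 ratios between 0.49 in glial-like and 0.93 in FAP-like cells.

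The complex I assembly factors, which help to build the complex and are not part of it, summed to a log2 ratio of 0.86 (0.72 to 1.01) in FAP-like cells, 0.44 in tenocyte-like and 0.41 in endothelial-like cells. In the other 3 classes the sums were -0.13 in monocyte and macrophage-like, 0.03 in pericyte and smooth muscle-like and -0.17 in glial-like cells. Ndufaf4 had 100.1 CPM in injured and 25.8 CPM in uninjured FAP-like cells, 3.88-fold (3.10 to 4.92) higher and the highest ratio of the nuclear members in that class. In endothelial-like cells Ndufaf4 had 81.2 CPM in the injured and 30.8 CPM in the uninjured library, 2.63-fold (2.23 to 3.11) higher, and its log2 ratio was 0.54 (0.09 to 0.99) in pericyte and smooth muscle-like cells. Ndufaf6 had 26.4 and 8.40 CPM in injured and uninjured FAP-like cells and 21.2 and 7.26 CPM in tenocyte-like cells. The low-count factor Ndufaf5, an enzyme that modifies a core subunit, had 22.2 CPM in injured and 8.96 CPM in uninjured tenocyte-like cells and 22.2 and 10.3 CPM in endothelial-like cells, where its direction turned when every cell was thinned to 1000 UMIs. Ndufaf1 was lower in monocyte and macrophage-like cells, with 3.99 CPM in the injured and 16.5 CPM in the uninjured library, the uninjured value from 9 UMIs, and a log2 ratio of -2.05 (-3.05 to -0.86). Ndufaf3 had 35.6 CPM in injured and 18.3 CPM in uninjured monocyte and macrophage-like cells, and log2 ratios below 0 in the other 5 classes.

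Complex II has 4 genes. Sdhb, its iron-sulphur subunit and the complex II member with the most UMIs, was above 0 in all classes, with 243 CPM in injured and 157 CPM in uninjured endothelial-like cells and a log2 ratio of 0.63 (0.51 to 0.75). Sdhc, a membrane anchor, had 85.5 CPM in injured and 38.5 CPM in uninjured monocyte and macrophage-like cells, 2.22-fold (1.45 to 3.60) higher and the highest ratio of the nuclear members in that class. Sdhd, the other anchor, had log2 ratios of 0.57 (0.26 to 0.88) in tenocyte-like and 0.47 (0.28 to 0.65) in endothelial-like cells, and its intervals in the other 4 classes included 0. Sdha, the flavin subunit that oxidises succinate, was at 0.14 in tenocyte-like cells and below 0 in the other 5 classes, with 83.9 CPM in injured and 187 CPM in uninjured glial-like cells and a log2 ratio of -1.16 (-1.83 to -0.53). Complex II together had log2 ratios of 0.40 in endothelial-like, 0.38 in tenocyte-like, 0.37 in monocyte and macrophage-like, 0.11 in FAP-like, 0.03 in pericyte and smooth muscle-like and -0.14 (-0.42 to 0.13) in glial-like cells.

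Complex III passes electrons from ubiquinol to cytochrome c. Its 8 nuclear members summed to 0.36 in FAP-like, 0.35 in tenocyte-like, 0.19 in endothelial-like, 0.16 in glial-like, -0.04 in monocyte and macrophage-like and -0.13 in pericyte and smooth muscle-like cells. Cyc1, the nuclear gene of its cytochrome c1 subunit, falls outside the symbol rule and is not in these sums. Uqcrq, a small subunit at the membrane, had 518 CPM in injured and 256 CPM in uninjured FAP-like cells, a log2 ratio of 1.02 (0.91 to 1.13). Uqcrb, the nuclear complex III member with the most UMIs, had 579.6 CPM in injured and 363 CPM in uninjured tenocyte-like cells. Uqcrc1, a core protein, had 252 CPM in injured and 129 CPM in uninjured glial-like cells, a log2 ratio of 0.96 (0.50 to 1.42). Uqcrh, the hinge protein next to cytochrome c1, was the exception, below 0 in all 6 classes with 406 CPM in injured and 704 CPM in uninjured monocyte and macrophage-like cells and a log2 ratio of -0.80 (-0.94 to -0.64). In FAP-like cells the summed nuclear members of complex III were thus above and its mitochondrial gene mt-Cytb, at -1.17, below the uninjured library.

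Complex IV, cytochrome c oxidase, hands electrons to oxygen. Its nuclear subunits summed to log2 ratios of 0.22 in tenocyte-like, 0.19 in FAP-like, 0.18 in glial-like, 0.08 in endothelial-like, 0.06 in monocyte and macrophage-like and -0.23 in pericyte and smooth muscle-like cells. Cox4i1, the regulatory subunit that binds ATP and the nuclear member with the most UMIs of all, was nearly level, with 1092 CPM in injured and 1180.0 CPM in uninjured endothelial-like cells. Cox5a, a matrix-side subunit, had 475 CPM in injured and 148 CPM in uninjured FAP-like cells, 3.21-fold (2.92 to 3.53) higher. In tenocyte-like cells Cox5a had 393 CPM in the injured and 166 CPM in the uninjured library, a log2 ratio of 1.25 (1.07 to 1.43), beside a log2 ratio of 0.18 in pericyte and smooth muscle-like cells. FAP-like and tenocyte-like cells had the lowest Cox5a levels of the 6 classes in the uninjured library. Cox7b had log2 ratios between 0.24 in pericyte and smooth muscle-like and 0.84 in endothelial-like cells. Cox7a2l, a protein that joins complexes III and IV into supercomplexes, was below 0 in all 6 classes. It had 141 CPM in injured and 524 CPM in uninjured monocyte and macrophage-like cells, 3.72-fold (3.28 to 4.20) lower, and 204 and 593 CPM in injured and uninjured endothelial-like cells, 2.90-fold (2.69 to 3.13) lower. In pericyte and smooth muscle-like cells it had 202 CPM in the injured and 443 CPM in the uninjured library, and its smallest difference was in tenocyte-like cells at -0.54 (-0.73 to -0.36). In some inbred mouse strains, C57BL/6 among them, Cox7a2l is known to carry a short form with altered function, which these counts cannot tell from the long form.

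Complex V had the highest summed log2 ratios of the nuclear complexes in FAP-like, tenocyte-like and glial-like cells. Its 15 genes summed to 0.51 in FAP-like, 0.39 in tenocyte-like, 0.37 in glial-like, 0.34 in endothelial-like, 0.18 in monocyte and macrophage-like and 0.02 in pericyte and smooth muscle-like cells. In tenocyte-like cells complex II was close at 0.38, with overlapping intervals. By the median over genes complex V was not highest in these first 3 classes. Its median was 0.483 in FAP-like cells (complex III 0.492), 0.31 in tenocyte-like (complex III 0.52) and 0.192 in glial-like cells (complex IV 0.194). The F1 subunits, which form the catalytic head, summed higher than the Fo and stalk subunits in each class, with 0.60 and 0.46 in FAP-like, 0.55 and 0.23 in endothelial-like and 0.18 and -0.07 in pericyte and smooth muscle-like cells. Atp5b, the catalytic beta subunit, had 800.4 CPM in injured and 400.3 CPM in uninjured FAP-like cells and 993 and 534 CPM in endothelial-like cells, log2 ratios of 1.00 (0.91 to 1.09) and 0.90 (0.83 to 0.96). Atp5l, a membrane subunit and the nuclear complex V member with the most UMIs, had log2 ratios between -0.23 and 0.28.

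The ring of complex V that turns with the passage of protons is made of subunit c, and 3 genes, Atp5g1, Atp5g2 and Atp5g3, encode the same mature protein with different import signals. Atp5g1 (ENSMUSG00000006057, chromosome 11, 96068852 to 96075670, minus strand, GRCm38) was higher in the injured library in all 6 classes and at least 2-fold in 4. It had 714 CPM in injured and 246 CPM in uninjured FAP-like cells, 2.90-fold (2.70 to 3.13) higher. In endothelial-like cells it had 542 CPM in the injured and 205 CPM in the uninjured library, 2.64-fold (2.48 to 2.82) higher. In glial-like cells the levels were 698 CPM injured and 335 CPM uninjured, in tenocyte-like cells 591 and 284, in pericyte and smooth muscle-like cells 535 and 294, and in monocyte and macrophage-like cells 517 and 293. Atp5g1 took 45.8% (45.1 to 46.5) of the UMIs of the 3 genes in injured and 30.1% (26.2 to 34.2) in uninjured monocyte and macrophage-like cells, and 44.6% and 34.8% in injured and uninjured FAP-like cells. Atp5g2 had a log2 ratio of 1.06 in FAP-like and 1.09 in tenocyte-like cells, 0.94 in glial-like cells and -0.29 (-0.46 to -0.10) in monocyte and macrophage-like cells. Atp5g3 had smaller differences, between -0.18 in pericyte and smooth muscle-like and 0.70 in FAP-like cells, and its share of the 3 was 21.6% in injured and 32.4% in uninjured pericyte and smooth muscle-like cells. Processed copies of these genes are known in the mouse genome, so the split among them is uncertain.

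Atp5g1 and Ndufa12, at least 2-fold higher in 3 or more classes, and Ndufaf4 and Cox5a, with the highest nuclear ratios of FAP-like cells, are shown by the 250 bases before their RefSeq start, in the direction of the gene, from RefSeq on GRCm38.p6. They were chosen after their values were seen. The Atp5g1 window lies at chr11:96075632-96075881 on the minus strand. On the plus strand lie those of Ndufa12 (chr10:94198785-94199034), Cox5a (chr9:57520982-57521231) and Ndufaf4 (chr4:24897833-24898082). RefSeq and GENCODE place some starts differently, so the Ndufa12 window lies inside the GENCODE gene and the Atp5g1 window overlaps the first bases of its GENCODE gene. Capitals mark matches, on either strand, to GCGC followed by any 2 bases and another GCGC, the core of the binding site of nuclear respiratory factor 1 (the NRF1 motif), to CCGGAAG, an ETS family site, or to ACGTG, the core shared by hypoxia response elements and part of the E-box CACGTG.
Atp5g1: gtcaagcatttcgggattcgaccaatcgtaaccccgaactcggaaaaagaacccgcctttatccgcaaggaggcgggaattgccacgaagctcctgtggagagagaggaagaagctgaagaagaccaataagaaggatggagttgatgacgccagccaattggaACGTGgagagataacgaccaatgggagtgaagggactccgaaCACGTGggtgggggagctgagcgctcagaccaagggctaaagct
Ndufa12: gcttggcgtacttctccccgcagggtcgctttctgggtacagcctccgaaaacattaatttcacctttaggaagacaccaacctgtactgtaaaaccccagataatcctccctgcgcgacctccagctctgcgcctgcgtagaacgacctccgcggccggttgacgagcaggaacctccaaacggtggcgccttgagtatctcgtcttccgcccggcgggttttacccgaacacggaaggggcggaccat
Cox5a: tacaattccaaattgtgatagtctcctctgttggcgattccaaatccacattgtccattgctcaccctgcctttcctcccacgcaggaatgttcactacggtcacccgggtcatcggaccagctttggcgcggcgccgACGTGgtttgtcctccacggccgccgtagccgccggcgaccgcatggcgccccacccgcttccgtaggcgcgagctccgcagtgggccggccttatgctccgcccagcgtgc
Ndufaf4: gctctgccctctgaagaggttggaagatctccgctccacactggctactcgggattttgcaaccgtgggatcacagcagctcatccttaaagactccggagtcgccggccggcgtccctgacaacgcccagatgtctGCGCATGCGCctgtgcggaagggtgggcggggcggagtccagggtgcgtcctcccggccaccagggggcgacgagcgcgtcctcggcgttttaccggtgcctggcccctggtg
Atp5g1 held ACGTG on the strand printed here, starting 86 and 43 bases upstream. Overlapping the second, it also held ACGTG on the opposite strand 44 bases upstream, the pair forming CACGTG. Cox5a held ACGTG 112 bases upstream and Ndufaf4 held the NRF1 motif, which reads alike on both strands, 113 bases upstream, while Ndufa12 held none of the 3 motifs in this window. Of 90 nuclear members 75 matched the promoter table by symbol. The NRF1 motif was in 16 of these, or 21.3%, and in 5.64% of the windows of 27025 genes. CCGGAAG was in 13, or 17.3%, and in 7.83% of all windows, and ACGTG was in 17, or 22.7%, and in 18.5% of all windows. A match describes the letters only.

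Among the isoform pairs of complex IV, the low-oxygen forms were bound to a few cell classes. Ndufa4l2 (ENSMUSG00000040280, chromosome 10, 127514967 to 127517154, plus strand), a hypoxia-responsive relative of the complex IV subunit Ndufa4, was chiefly a transcript of pericyte and smooth muscle-like cells, with 494 CPM in injured and 937 CPM in uninjured cells, 1.90-fold (1.73 to 2.08) lower. Tenocyte-like cells, the fibroblasts of tendon, had 68.0 CPM in the injured and 518 CPM in the uninjured library, 7.62-fold (6.38 to 9.15) lower. FAP-like cells had 10.0 and 146 CPM in the injured and uninjured library, 14.6-fold (11.3 to 19.2) lower, the largest difference among nuclear members with at least 20 UMIs in each library. In endothelial-like cells the levels were low and alike, 14.9 CPM in injured and 17.7 CPM in uninjured cells, over 10 times below pericyte and smooth muscle-like cells of the same library. Cells with at least 1 Ndufa4l2 UMI were 75.4% of injured and 85.9% of uninjured pericyte and smooth muscle-like cells, 31.6% and 54.1% of tenocyte-like and 9.74% and 33.5% of FAP-like cells. Monocyte and macrophage-like cells had 0.404% in the injured and 1.53% (0.185 to 5.41) in the uninjured library. That uninjured value came from 2 of 131 cells. Median depths of the class were 7019 UMIs injured and 3760.0 uninjured. The part of free RNA, released from other cells, in these shares was not tested. Thinned to 1000 UMIs per cell, the shares in the injured and uninjured libraries were 39.2% and 61.0% in pericyte and smooth muscle-like, 8.39% and 29.1% in tenocyte-like and 1.90% and 14.1% in FAP-like cells.

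Ndufa4l2 took 62.6% (59.6 to 65.5) of the UMIs of Ndufa4 and Ndufa4l2 together in injured and 68.3% (66.3 to 70.2) in uninjured pericyte and smooth muscle-like cells. The same share was 11.9% (10.1 to 14.0) in injured and 59.0% (56.8 to 61.1) in uninjured tenocyte-like cells and 1.95% (1.51 to 2.48) and 28.1% (26.0 to 30.3) in FAP-like cells. In the uninjured library tenocyte-like cells therefore held more Ndufa4l2 than Ndufa4 UMIs, and in the injured library fewer. Ndufa4 itself had log2 ratios of 0.48 in tenocyte-like, 0.42 in FAP-like and -0.56 in pericyte and smooth muscle-like cells. Among uninjured FAP-like cells the transcript was unevenly spread, with 228 CPM in cluster 8, led by Myoc and Smoc2, against 44.8 CPM in cluster 24 and 20.8 CPM in cluster 16, led by Mrgprg, Smpd3 and Pi16. Because 449 of 765 uninjured and 13 of 421 injured FAP-like cells lay in cluster 8, the makeup of the class and the level within a cell type cannot be told apart. Satellite-like cells, the muscle stem cells, had 0 of 372 UMIs of the pair from Ndufa4l2 in the uninjured library, which allows a share of up to 0.806%.

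Cox4i2 (ENSMUSG00000009876, chromosome 2, 152754173 to 152765037, plus strand), the form of subunit 4 linked to low oxygen, was likewise found in pericyte and smooth muscle-like cells, with 114 CPM in injured and 214 CPM in uninjured cells, a log2 ratio of -0.92 (-1.20 to -0.64). It took 9.20% (7.85 to 10.7) of the Cox4i1 and Cox4i2 UMIs in injured and 14.0% (12.7 to 15.5) in uninjured pericyte and smooth muscle-like cells. In the other 5 classes compared the share was at most 0.658%, seen in uninjured tenocyte-like cells. Both low-oxygen forms were thus highest in the same class and lower in its injured cells. The 10 pericyte and smooth muscle markers of that class summed to 6769 CPM in its injured and 15718 CPM in its uninjured cells, all 10 present in both. Within the class at a finer clustering, Ndufa4l2 had 844 CPM in 17 injured and 911 CPM in 195 uninjured cells of subcluster 24, and 455 CPM in 110 injured and 1592 CPM in 70 uninjured cells of subcluster 26. Cox4i2 had 182 CPM in injured and 220.1 CPM in uninjured cells of subcluster 24, and 106 CPM in injured and 246 CPM in uninjured cells of subcluster 26. The size of both differences thus varied with the makeup of the class, and the part of that makeup and of the marker levels was not tested.

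**Figure D4:**
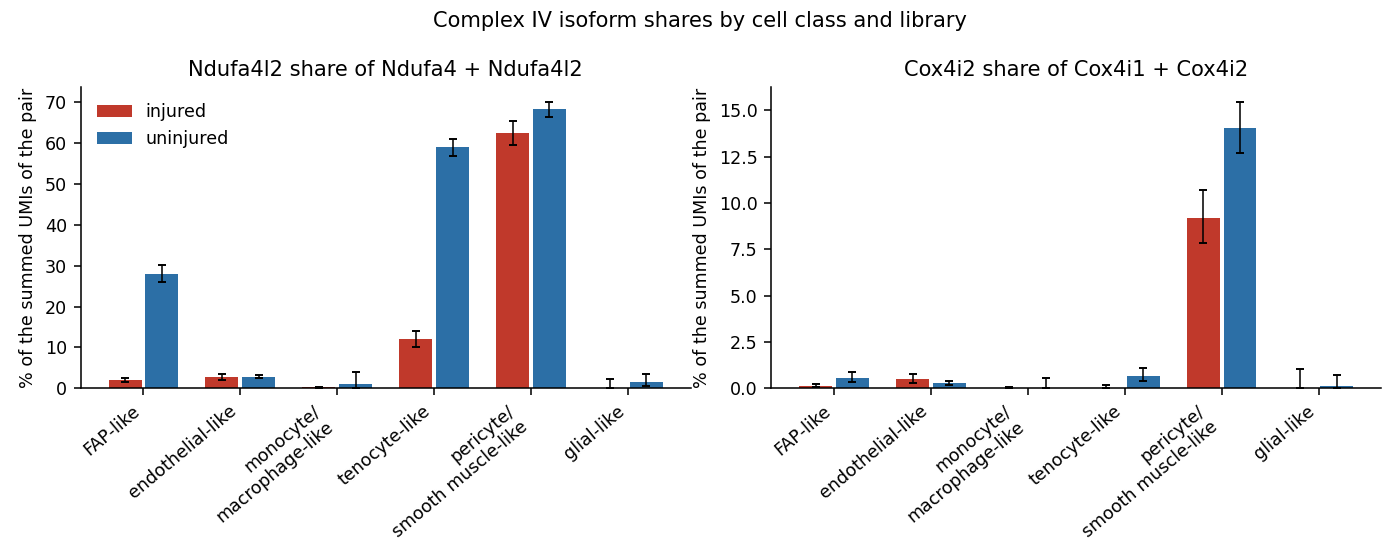
Share of UMIs of an isoform pair taken by the alternative gene (vertical axes, percent) in 6 cell classes (horizontal axes), injured library left of uninjured library, with exact binomial intervals. Ndufa4l2 holds 11.9% in injured and 59.0% in uninjured tenocyte-like cells, and Cox4i2 stands out in pericyte and smooth muscle-like cells.

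Cox6a2, Cox7a1 and Cox8b are the forms known from muscle fibres. In the 114 uninjured barcodes with muscle fibre markers, Cox6a2 took 45.0% (39.9 to 50.1) of the Cox6a pair, Cox7a1 33.4% (28.3 to 38.9) of the Cox7a1 and Cox7a2 pair and Cox8b 41.2% (36.2 to 46.3) of the Cox8 pair. Elsewhere they were rare, over 10 times below those barcodes in the uninjured library. Together the 3 genes had log2 ratios of -3.15 in tenocyte-like, -3.07 in FAP-like, -2.32 in pericyte and smooth muscle-like, -1.48 in endothelial-like, -1.33 in glial-like and -0.76 in monocyte and macrophage-like cells. Cox8b had 4 UMIs in injured and 62 in uninjured FAP-like cells, 30.7-fold (11.4 to 116) lower, and 1 and 43 UMIs in tenocyte-like cells, a ratio of 37.2-fold (6.33 to 1504) lower in the injured library. In endothelial-like cells Cox8b had 5 UMIs in the injured and 57 in the uninjured library. Cox7a1 had 4 UMIs in injured and 39 in uninjured pericyte and smooth muscle-like cells and 2 and 19 in tenocyte-like cells. In monocyte and macrophage-like cells Cox7a1 was nearly level, with 15.4 CPM in the injured and 16.5 CPM in the uninjured library. Those values came from 281 and 9 UMIs, and the 281 were most of the 397 injured UMIs of the 3 genes there. Cox7a1 was seen in 9.90% of these injured cells. In injured cells of the other classes compared it was seen in 1.29% (tenocyte-like) to 3.92% (glial-like). Cox6a2 had log2 ratios of -1.97 (-2.97 to -0.79) in monocyte and macrophage-like and -1.71 (-2.90 to -0.71) in endothelial-like cells. The common forms stayed inside the 2-fold limit, with Cox6a1 between -0.15 and 0.28, Cox7a2 between -0.20 and 0.51 and Cox8a between -0.31 and 0.31. The 14 muscle fibre markers were lower in the injured library in every class as well, with 78.2 CPM in injured and 612 CPM in uninjured FAP-like cells, 156 and 640.0 in endothelial-like, 191 and 721 in monocyte and macrophage-like, 132 and 726 in tenocyte-like, 137 and 712 in pericyte and smooth muscle-like, and 161 and 1025 in glial-like cells. Of the 14, between 10 and 13 had UMIs in each class and library, and Myh7 or Myh2 was at 0 in each. The part of these markers' RNA in the isoform ratios was not tested.

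Cox6b2, best known from testis, did not follow the fibre forms, with 0 of 305 UMIs of the Cox6b pair in the fibre-marker barcodes, which allows a share of up to 0.984%. It had 4.65 CPM in injured and 29.3 CPM in uninjured monocyte and macrophage-like cells, 6.31-fold (3.45 to 10.9) lower, the uninjured value from 16 UMIs. In FAP-like cells it had 11 UMIs in the injured and 48 in the uninjured library, 8.64-fold (4.43 to 18.5) lower. In tenocyte-like cells there were 0 UMIs in the injured and 10 in the uninjured library. Cox6b1, the common form, had 749.9 CPM in injured and 592 CPM in uninjured monocyte and macrophage-like cells.

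Levels across cell classes differed between the genomes. Among the classes of at least 50 cells in the uninjured library, the nuclear sum was highest in the fibre-marker barcodes at 37783 CPM, then in pericyte and smooth muscle-like cells at 30906 CPM, glial-like cells at 25794, satellite-like cells at 25456, endothelial-like cells at 24741, and lowest of the classes without haemoglobin in FAP-like cells at 20357 CPM. The glial-like and satellite-like intervals overlap. Of 90 nuclear members 58 were highest in the fibre-marker barcodes. Among the same classes the mitochondrial sum was instead highest in glial-like cells at 68415 CPM, followed by satellite-like cells at 59074 and pericyte and smooth muscle-like cells at 57413 CPM, and the fibre-marker barcodes stood at 49813 CPM. Uninjured glial-like cells were the shallowest of the 6 classes compared, at a median of 2535 UMIs. Among uninjured cells of 4000 to 6000 UMIs the median mitochondrial share was 5.16% in glial-like and 4.91% in tenocyte-like cells. The rest of those 6 classes had 3.92% to 4.65%. The uninjured glial-like lead was thus small at that depth. In injured cells the same medians were 5.10% in glial-like and 3.48% in tenocyte-like cells. Satellite-like cells and fibre-marker barcodes were not compared there. In the injured library glial-like cells led for 12 of 13 mitochondrial members and in the uninjured library for 11 of 13. Their mitochondrial sum was 46234 CPM in the injured library, above 34422 CPM in pericyte and smooth muscle-like, 32695 CPM in neutrophil-like, 28373 CPM in dendritic-like and 24839 CPM in FAP-like cells. Nuclear members were highest in glial-like cells for 33, in endothelial-like for 17 and in pericyte and smooth muscle-like for 15 of the 90 in the injured library.

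Pericyte and smooth muscle-like cells were mixed, and their values moved with the makeup of the class. Endothelial markers summed to 3784 CPM in injured and 6223 CPM in uninjured cells of the class. At a finer clustering, subcluster 24, the richest in endothelial markers, held 17 injured and 195 uninjured cells, and a subcluster with 21113 CPM of Acta2, the smooth muscle actin, held 40 uninjured cells. That subcluster had the highest sums, with 46691 CPM of nuclear and 115251 CPM of mitochondrial members. Without subcluster 24, leaving 113 injured and 110 uninjured cells, the log2 ratio of the class was -0.53 for the nuclear and -1.45 for the mitochondrial sum, and 7 nuclear members were at least 2-fold lower. The 110 uninjured cells still include the 40 of the Acta2-rich subcluster. Within subcluster 26, with 110 injured and 70 uninjured cells, the nuclear sum was 27653 CPM in injured and 33202 CPM in uninjured cells and the mitochondrial sum 32460.2 and 71619.8 CPM. Within subcluster 24 the nuclear sum was nearly level, with 28014 CPM in 17 injured and 27821 CPM in 195 uninjured cells. Its mitochondrial sum was 36088 CPM in injured and 45124 CPM in uninjured cells. The lower nuclear sum was thus not seen in subcluster 24.

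Genes that serve the chain without being members were described by list. The mitochondrial ribosome, which translates the 13 mitochondrial mRNAs, had median log2 ratios of 0.93 in FAP-like, 0.60 in tenocyte-like, 0.49 in endothelial-like, 0.30 in glial-like, 0.25 in pericyte and smooth muscle-like and 0.20 in monocyte and macrophage-like cells, all above the medians of all symbols given earlier. In FAP-like cells 31 of its 76 measured genes were at least 2-fold higher and 0 lower, and in endothelial-like cells 15 were higher and 0 lower, beside 15.2% and 10.8% of all symbols higher. Mrpl12, a ribosomal protein, had 349 CPM in injured and 67.2 CPM in uninjured FAP-like cells, and Mrpl52 had 686 and 189 CPM in endothelial-like cells. The ribosome genes thus lay higher than the mRNAs that this ribosome translates, in every class compared.

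Tricarboxylic acid cycle genes, which feed the chain with electrons, had medians of 0.53 in FAP-like, 0.44 in tenocyte-like, 0.36 in endothelial-like, 0.29 in pericyte and smooth muscle-like, 0.19 in monocyte and macrophage-like and 0.16 in glial-like cells, with 5, 3, 3, 1 and 1 of 18 and 0 of 16 measured genes at least 2-fold higher and 0 lower. Of all symbols 15.2%, 10.0%, 10.8%, 8.66%, 8.39% and 8.37% were higher in the same order, so the last 3 counts did not exceed the share of all symbols. Idh3a, a subunit of isocitrate dehydrogenase, had 91.4 CPM in injured and 31.2 CPM in uninjured FAP-like cells. The list of electron carriers and assembly factors had medians between -0.09 in glial-like and 0.39 in FAP-like cells. Its genes included Cycs, cytochrome c, with 394 CPM in injured and 107 CPM in uninjured FAP-like cells and 403 and 183 CPM in monocyte and macrophage-like cells. Cyc1, the cytochrome c1 subunit of complex III, had 274 CPM in injured and 80.7 CPM in uninjured FAP-like cells. Surf1, a complex IV assembly factor, was lower, with 19.7 CPM in injured and 65.4 CPM in uninjured FAP-like cells.

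Genes of mitochondrial transcription, RNA handling and translation factors had medians of 0.65 in FAP-like and 0.31 in tenocyte-like cells, 0.14 in endothelial-like and -0.29 in glial-like cells, the last over 8 measured genes. Tbrg4, a protein of the FASTK family that acts on mitochondrial RNA, had a log2 ratio of 2.71 in FAP-like and 1.55 in monocyte and macrophage-like cells, and Polg2, a subunit of the mitochondrial DNA polymerase, -0.95 and -2.03. The list of regulators of mitochondrial mass and of hypoxic isoforms had medians below those of all symbols in 5 of 6 classes, with -1.12 in glial-like, -0.95 in pericyte and smooth muscle-like and -0.90 in tenocyte-like cells and -0.03 in monocyte and macrophage-like cells. Epas1, the hypoxia-inducible factor HIF-2 alpha, had 6.21 CPM in injured and 49.5 CPM in uninjured FAP-like cells and 9.86 and 43.5 CPM in tenocyte-like cells, and 2.24 and 53.2 CPM in monocyte and macrophage-like cells. Hif1a, the HIF-1 alpha subunit, had 219 CPM in injured and 58.7 CPM in uninjured monocyte and macrophage-like cells and 55.2 and 39.7 CPM in tenocyte-like cells. Pink1, a kinase that marks damaged mitochondria for removal, had 23.2 CPM in injured and 123 CPM in uninjured FAP-like cells and 38.8 and 155 CPM in pericyte and smooth muscle-like cells.

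**Figure D5:**
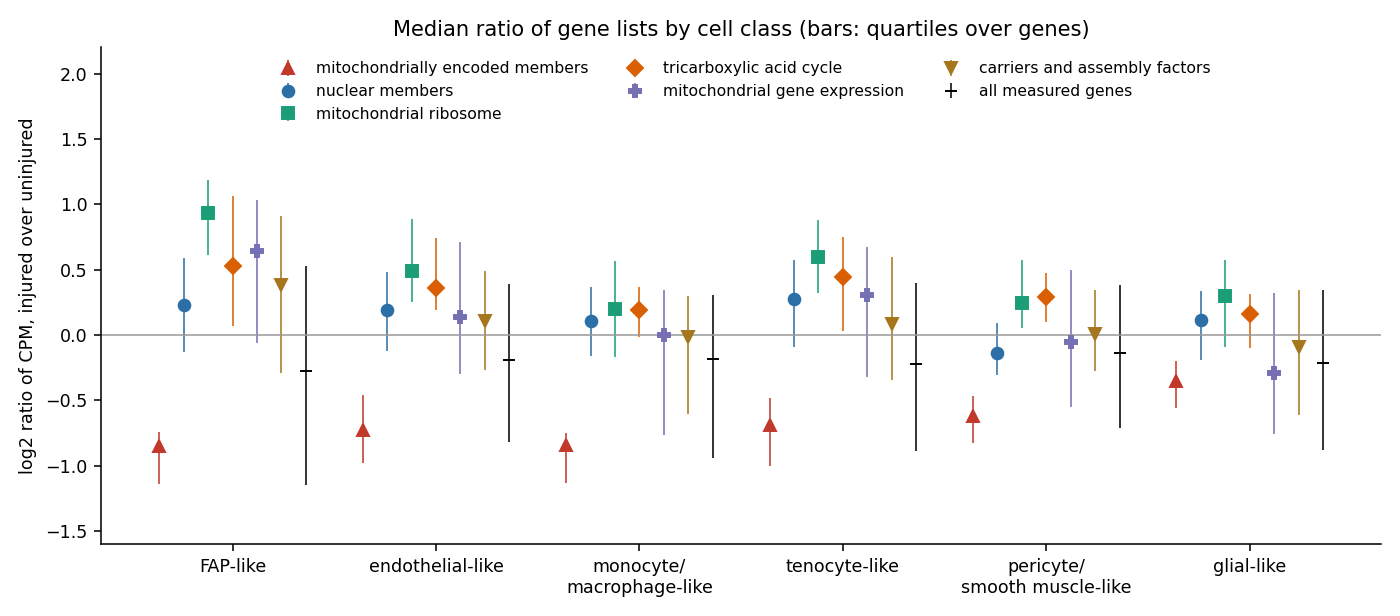
Median log2 ratio of CPM, injured over uninjured (vertical axis), of the nuclear members, the mitochondrial members, the lists of related genes and all measured symbols in 6 cell classes (horizontal axis), with bars for the quartiles over genes. The mitochondrial ribosome lies highest in FAP-like cells at 0.93 and the mitochondrial members lie below all symbols in each class.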

How the data were processed

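Cells of digested tibialis anterior muscle were captured with 10X Single Cell 3' v2 reagents, per the labels, as 1 library per group. The authors deposited 1 matrix per library of raw UMI counts per gene and cell barcode, made with Cell Ranger 2.1.1 on mm10, per the submitters' processing notes; annotation release and the treatment of reads with several matches were not given. The members, gene lists and comparisons were chosen with earlier results of these data known, and the rule that names clusters was set after seeing the data.

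Barcodes with at least 200 genes and at most 20% mitochondrial UMIs were kept. Scrublet's automatic limit marked 1 injured and 0 uninjured barcodes, so the top-scoring barcodes (0.8% per 1000 barcodes, 161 and 249) were removed as doublets. Cells of both libraries were clustered together with scanpy 1.11.5 and leidenalg 0.10.2 (2000 variable genes without the members, 30 principal components, 15 neighbours, resolution 1, seed 0) into 28 clusters. Clusters were named from 16 marker lists by the list with the largest share of its markers present, unless the 10 leading genes went against the name. A marker was present if in 20% of cells and at least 2-fold the median of the cluster means, and at least 3 were required. Counts were summed per class and library, a member was measured in a class with 20 UMIs over both libraries, and 2-fold served as the size limit. Ratio intervals are exact conditional binomial intervals and shares have Clopper-Pearson intervals, at 95% (scipy 1.17.1). With 0 UMIs, 3 counts were taken as the upper limit of a share. In log2 ratios of single genes a lower count under 3 was raised to 3, never past equal rates. Folds and all intervals used the counts as they were. Gene coordinates are GENCODE's on GRCm38.

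Named are all mitochondrial members, isoform groups, complex II, the member with most UMIs per complex, the 3 highest and 3 lowest nuclear members per class, and those 2-fold different in at least 3 classes. Ndufv1, Ndufab1, Ndufa13, Ndufa6, Uqcrq, Uqcrh, Cox7b, Atp5b and the genes of the other lists were named after their values were seen. The ratio step was tested on simulated counts with known fold changes. Other normalisations, thinning, depth limits, clusterings, doublets and size limits were tried as alternatives.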

Additional observations from a re-analysis of the deposited data

How the results depend on the processing

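The summed mitochondrial level was lower in the injured library in all 6 classes under every alternative run (11 or 12 per class), and the summed nuclear level kept its side of 0 in each. Where a sum moved beyond its counting interval, or a count by over 1.5 times, the value follows, with macrophage-like and pericyte-like short for the mixed classes. With doublets kept the summed mitochondrial log2 ratio was -0.95 in FAP-like, -0.81 in macrophage-like, -0.82 in tenocyte-like and -0.78 in pericyte-like cells and the nuclear one -0.18 in pericyte-like cells. Here members at least 2-fold higher numbered 1 in macrophage-like cells, and members at least 2-fold lower numbered 4 in pericyte-like and 4 in glial-like cells. With cells classed by their own marker score the summed mitochondrial log2 ratio was -0.91 in FAP-like, -0.80 in endothelial-like, -0.996 in macrophage-like, -0.79 in pericyte-like and -0.52 in glial-like cells and the nuclear one 0.20 in endothelial-like and 0.22 in macrophage-like cells. In this case members at least 2-fold higher numbered 4 in macrophage-like and 0 in glial-like cells, and members at least 2-fold lower numbered 4 in pericyte-like and 3 in glial-like cells. With every cell thinned to 1000 UMIs the summed mitochondrial log2 ratio was -0.90 in FAP-like, -0.95 in macrophage-like, -0.86 in tenocyte-like, -0.77 in pericyte-like and -0.59 in glial-like cells and the nuclear one 0.29 in FAP-like, 0.18 in tenocyte-like and 0.20 in glial-like cells. Then members at least 2-fold higher numbered 4 in glial-like cells, and members at least 2-fold lower numbered 2 in FAP-like, 3 in macrophage-like, 2 in tenocyte-like and 2 in glial-like cells. Among cells of at least 3333 UMIs the summed mitochondrial log2 ratio was -0.86 in FAP-like, -0.65 in endothelial-like, -0.69 in macrophage-like, -0.73 in tenocyte-like, -0.66 in pericyte-like and -0.27 in glial-like cells and the nuclear one 0.23 in FAP-like, 0.18 in endothelial-like and -0.14 in pericyte-like cells. There members at least 2-fold higher numbered 3 in glial-like cells, and members at least 2-fold lower numbered 0 in glial-like cells. With median-of-ratios size factors the summed mitochondrial log2 ratio was -0.69 in FAP-like, -0.78 in endothelial-like, -0.64 in macrophage-like, -0.72 in tenocyte-like, -0.66 in pericyte-like and -0.63 in glial-like cells and the nuclear one 0.54 in FAP-like, 0.27 in endothelial-like, 0.28 in macrophage-like, 0.32 in tenocyte-like, -0.0804 in pericyte-like and 0.0960 in glial-like cells. So counted, members at least 2-fold higher numbered 14 in FAP-like, 8 in macrophage-like and 0 in glial-like cells, and members at least 2-fold lower numbered 2 in glial-like cells. With mitochondrial, haemoglobin and fibre UMIs left out of the total the summed mitochondrial log2 ratio was -1.001 in FAP-like, -0.93 in endothelial-like, -0.88 in macrophage-like, -0.88 in tenocyte-like, -0.77 in pericyte-like and -0.60 in glial-like cells and the nuclear one 0.22 in FAP-like, 0.12 in endothelial-like, 0.0377 in macrophage-like, 0.16 in tenocyte-like and -0.19 in pericyte-like cells. Here members at least 2-fold higher numbered 1 in macrophage-like cells. With the mean over cells in place of the sum the summed mitochondrial log2 ratio was -0.91 in FAP-like, -0.93 in macrophage-like, -0.76 in pericyte-like and -0.59 in glial-like cells and the nuclear one 0.29 in FAP-like, 0.14 in endothelial-like, 0.10 in macrophage-like, 0.17 in tenocyte-like and -0.19 in pericyte-like cells. In this case members at least 2-fold higher numbered 4 in macrophage-like and 2 in glial-like cells, and members at least 2-fold lower numbered 4 in pericyte-like and 0 in glial-like cells. At 1.5-fold members at least 1.5-fold higher numbered 23 in FAP-like, 16 in endothelial-like, 11 in macrophage-like, 22 in tenocyte-like, 2 in pericyte-like and 9 in glial-like cells, and members at least 1.5-fold lower numbered 11 in FAP-like, 10 in endothelial-like, 12 in macrophage-like, 8 in tenocyte-like, 13 in pericyte-like and 6 in glial-like cells. With members that another class holds at over 10 times the level left out, members at least 2-fold lower numbered 3 in FAP-like, 2 in endothelial-like, 1 in tenocyte-like and 1 in pericyte-like cells. With the members allowed as variable genes the summed mitochondrial log2 ratio was -0.78 in pericyte-like cells and the nuclear one 0.20 in glial-like cells. There members at least 2-fold higher numbered 3 in glial-like cells, and members at least 2-fold lower numbered 4 in pericyte-like cells. At Leiden resolution 0.5 the summed mitochondrial log2 ratio was -0.78 in pericyte-like cells and the nuclear one 0.20 in glial-like cells. So counted, members at least 2-fold higher numbered 3 in glial-like cells, and members at least 2-fold lower numbered 4 in pericyte-like cells. At resolution 2 the summed mitochondrial log2 ratio was -0.78 in pericyte-like cells and the nuclear one -0.18 in pericyte-like cells. Here members at least 2-fold lower numbered 4 in pericyte-like cells. With no minimum beyond 1 UMI members at least 2-fold higher numbered 3 in glial-like cells, and members at least 2-fold lower numbered 4 in pericyte-like cells. Without the pericyte-like subcluster richest in endothelial markers, chosen after seeing the data, the summed mitochondrial log2 ratio was -1.45 in pericyte-like cells and the nuclear one -0.53 in pericyte-like cells. So counted, members at least 2-fold lower numbered 7 in pericyte-like cells. In glial-like cluster 19 alone, also chosen after seeing the data, the nuclear log2 ratio was 0.0788 in glial-like cells, and members at least 2-fold lower numbered 2 in glial-like cells. Nothing moved when the filter on mitochondrial share was dropped. Of 709 alternative values for the 64 differences of single members past 2-fold, 593 lay within the counting interval of the main value, 115 moved and 1 reversed: Ndufaf5 in endothelial-like cells, at -0.17 with every cell thinned to 1000 UMIs. The causes of these shifts were not tested. No paired analysis was possible because each group has 1 library and the result comes from no test.

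With 1 library per group, animal, sex, digestion and library depth cannot be told apart from injury, and no interval covers them. Shares do not tell fewer molecules of a member from more of other RNA. Counting limits members with few UMIs, such as mt-Nd6, Cox8b and Cox6b2, and the classes with few cells in 1 library, glial-like cells in the injured and monocyte and macrophage-like cells in the uninjured one. Members with processed copies, and the overlapping mt-Atp8 and mt-Atp6, depend on how reads were assigned.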
